A study of Mus musculus with 4 samples.

Results

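The cytosolic ribosomal protein genes encode the proteins of the ribosome that translates cytoplasmic mRNA. They were taken as protein-coding symbols made of Rpl or Rps and a number, together with Rplp0, Rplp1, Rplp2 and Rpsa, without the Rps6k kinases, pseudogenes and mitochondrial ribosomal proteins. This gave 86 of the 25738 genes that could be named in the libraries. Of the 86, 48 belong to the large subunit, 3 to its stalk and 33 to the small subunit. The remaining 2, Rps19bp1 (a protein that binds Rps19) and Rpl7l1 (a relative of Rpl7 in ribosome precursors), fit the naming rule without being standard ribosome components. Fau and Rack1 encode ribosomal proteins under other names and were read apart from the members.

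RNA came from stromal cells of the prostate of adult C57BL/6 mice, from the proximal ducts next to the urethra (libraries proximal 2 and proximal 3) and from the distal ducts at the tips of the lobes (libraries distal 2 and distal 3). Cells of all 4 libraries were sorted as positive for Sca-1 and negative for CD24, CD49f and lineage markers, and no treatment or transgene is named. The study looked for signals that differ between the stroma at the ends of the ductal tree. The labels do not say whether the libraries came from separate animals or pools, so a p-value here is about the spread among 4 libraries, some of which may be technical.

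Ribosomal proteins are needed in matched amounts, and their mRNAs are among the most abundant of most cells. Most of these mRNAs begin with a run of pyrimidines, the terminal oligopyrimidine (TOP) motif, through which growth signals acting by mTOR and the RNA-binding protein Larp1 set how strongly they are translated. Ribosomal proteins made in excess of ribosomes are degraded, and heterozygous loss of several of these genes causes Diamond-Blackfan anaemia in humans.

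Values are FPKM, that is fragments counted relative to transcript length and to the mapped fragments of the library, added up here over the transcripts of a gene. Where a sentence gives a pair of values for a region, the library numbered 2 comes before the one numbered 3. The libraries had 11458 (proximal 2), 10685 (proximal 3), 10929 (distal 2) and 10147 (distal 3) genes at 1 FPKM or more. Depth is unknown because the deposited tables hold no fragment totals. Over the ribosomal protein genes of a library, the deposited FPKM bounds lay at a median distance of 8.39% to 9.96% to either side of the value. All 8 markers of the sorted stroma were present and summed to 5420 FPKM (proximal 2) and 5895 FPKM (proximal 3), against 5362 FPKM (distal 2) and 4751 FPKM (distal 3). The 7 epithelial markers, all of them at 1 FPKM or more in at least 1 library, summed to 51.3 FPKM (proximal 2) and 374 FPKM (proximal 3), against 32.7 FPKM (distal 2) and 84.8 FPKM (distal 3). Proximal 3 thus stood apart in epithelial RNA. The 6 leukocyte markers summed to 6.37 FPKM at most (proximal 3), with Cd3e at 0 in all 4 libraries, and the 3 Schwann cell markers to 0.361 FPKM at most. The 4 endothelial markers summed to between 7.23 and 8.26 FPKM in the 4 libraries. The 5 smooth muscle and pericyte markers summed to 197 FPKM (proximal 2) and 115 FPKM (proximal 3), against 199.8 FPKM (distal 2) and 136 FPKM (distal 3). The 3 erythroid markers summed to 0.021 FPKM (proximal 2) and 17.4 FPKM (proximal 3), against 5.41 FPKM (distal 2) and 3.93 FPKM (distal 3).

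The promoters of these genes share letters that the naming rule did not use. RefSeq (GRCm38.p6) gave a window from 250 bases before to 50 bases after the start for 63 of the 83 members that were later tested, taking the entry nearest to the deposited start. The 27025 windows set beside them are the first listed of each gene symbol, without matching to a deposited start or a filter on level. The shares of members and of all windows thus come from unlike choices. A run of at least 8 C or T letters on the coding strand, touching the 15 bases to either side of the start, was present in 31 of the 63 windows (49.2%), against 17.4% of all 27025 windows. CCGGAAG, the core that ETS factors such as Gabpa bind, was found on either strand in 24 windows (38.1%), against 9.12% of all windows, and overlapped the C or T run in 1 of them. GGGCGG, the box of Sp1, was found on either strand in 40 windows (63.5%), against 35.9% of all. TATAAA was found in 6 windows (9.52%), against 14.2% of all, and AAGATGGC, the box of Yy1, in 5 windows (7.94%), against 2.88% of all. A match describes letters in the window and is not a bound site.

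A few starts show what the run looks like in abundant members and in the pair Rps27 and Rps27rt described below. Each line gives 40 bases before the annotated start and 20 from it, 5′ to 3′, with the C or T run in capitals. Rps9 lies at chr7:3704001-3704060 (plus strand), Rpl4 at chr9:64173347-64173406 (plus strand), Rplp0 at chr5:115559427-115559486 (plus strand), Rps27 at chr3:90213629-90213688 (minus strand) and Rps27rt at chr9:114982720-114982779 (minus strand).
Rps9: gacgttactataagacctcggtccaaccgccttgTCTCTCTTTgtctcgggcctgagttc
Rpl4: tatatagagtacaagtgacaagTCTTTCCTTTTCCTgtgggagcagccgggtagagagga
Rplp0: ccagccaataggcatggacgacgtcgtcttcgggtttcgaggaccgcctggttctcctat
Rps27: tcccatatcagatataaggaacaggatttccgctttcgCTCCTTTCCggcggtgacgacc
Rps27rt: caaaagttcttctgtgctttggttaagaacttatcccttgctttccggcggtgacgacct
The longest run near the start was 14 letters in Rpl4 and 9 in Rps9 and Rps27. The run of Rpl4 lies wholly before the annotated start, while those of Rps9 and Rps27 span it. A run counted here is thus not always part of the annotated mRNA. Rplp0 reached 7 letters and Rps27rt 6, so neither met the 8 set here. The RefSeq start of Rps27rt lies 32 bases from the start of its deposited transcript.

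The summed level of the 86 genes did not separate the regions. Ribosomal protein genes made up 1.60% and 2.14% of all FPKM in proximal 2 and proximal 3, against 1.91% and 1.95% in distal 2 and distal 3. These shares leave out near-identical copies outside the member list, described below, such as Rpl3-ps2 at a mean of 451 FPKM. Fragments can be divided between such copies and the members. The proximal libraries lay on either side of the distal ones, at 1.87 ± 0.381% in proximal and 1.93 ± 0.0273% in distal stroma (SD, n = 2 each). The difference of -0.0558 percentage points had a two-sided exact permutation p of 1.0, in a design of 2 against 2 libraries that cannot give a p below 0.333. In sorted bulk RNA a lower sum can come from fewer cells with high levels or from less ribosomal protein mRNA per cell, and these cannot be told apart. Without proximal 2 the difference was 0.214 percentage points, and without proximal 3 it was -0.325 percentage points.

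Levels per length spanned a wide range among the ribosomal protein genes. Over the 4 libraries the mean of the 83 tested members ran from 2.84 FPKM (Rps15a) to 1095 FPKM (Rpl41), a 386-fold range with a median of 44.1 FPKM. The deposited transcript of Rps15a was 5134 bases long, the longest main transcript of the 83, whose median was 679 bases. Rps15a had 6 near-identical copies in the annotation, of which Rps15a-ps4 averaged 7.60 FPKM. The level of Rps15a, and with it the low end of the range, is therefore uncertain. Of the 83, 20 averaged above 100 FPKM, 55 lay between 10 and 100 FPKM and 8 lay under 10 FPKM. The 8 highest held 46.3% of the summed level, and Rpl41 and Rps27rt alone held 24.8%. The order of genes was nearly the same in every library, with Pearson's r of log2(FPKM + 1) across the 83 genes of 0.98 between proximal 2 and proximal 3 and 0.97 between distal 2 and distal 3. These r values are across genes, which are not independent replicates, and share each gene's transcript models.

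**Figure D1:**
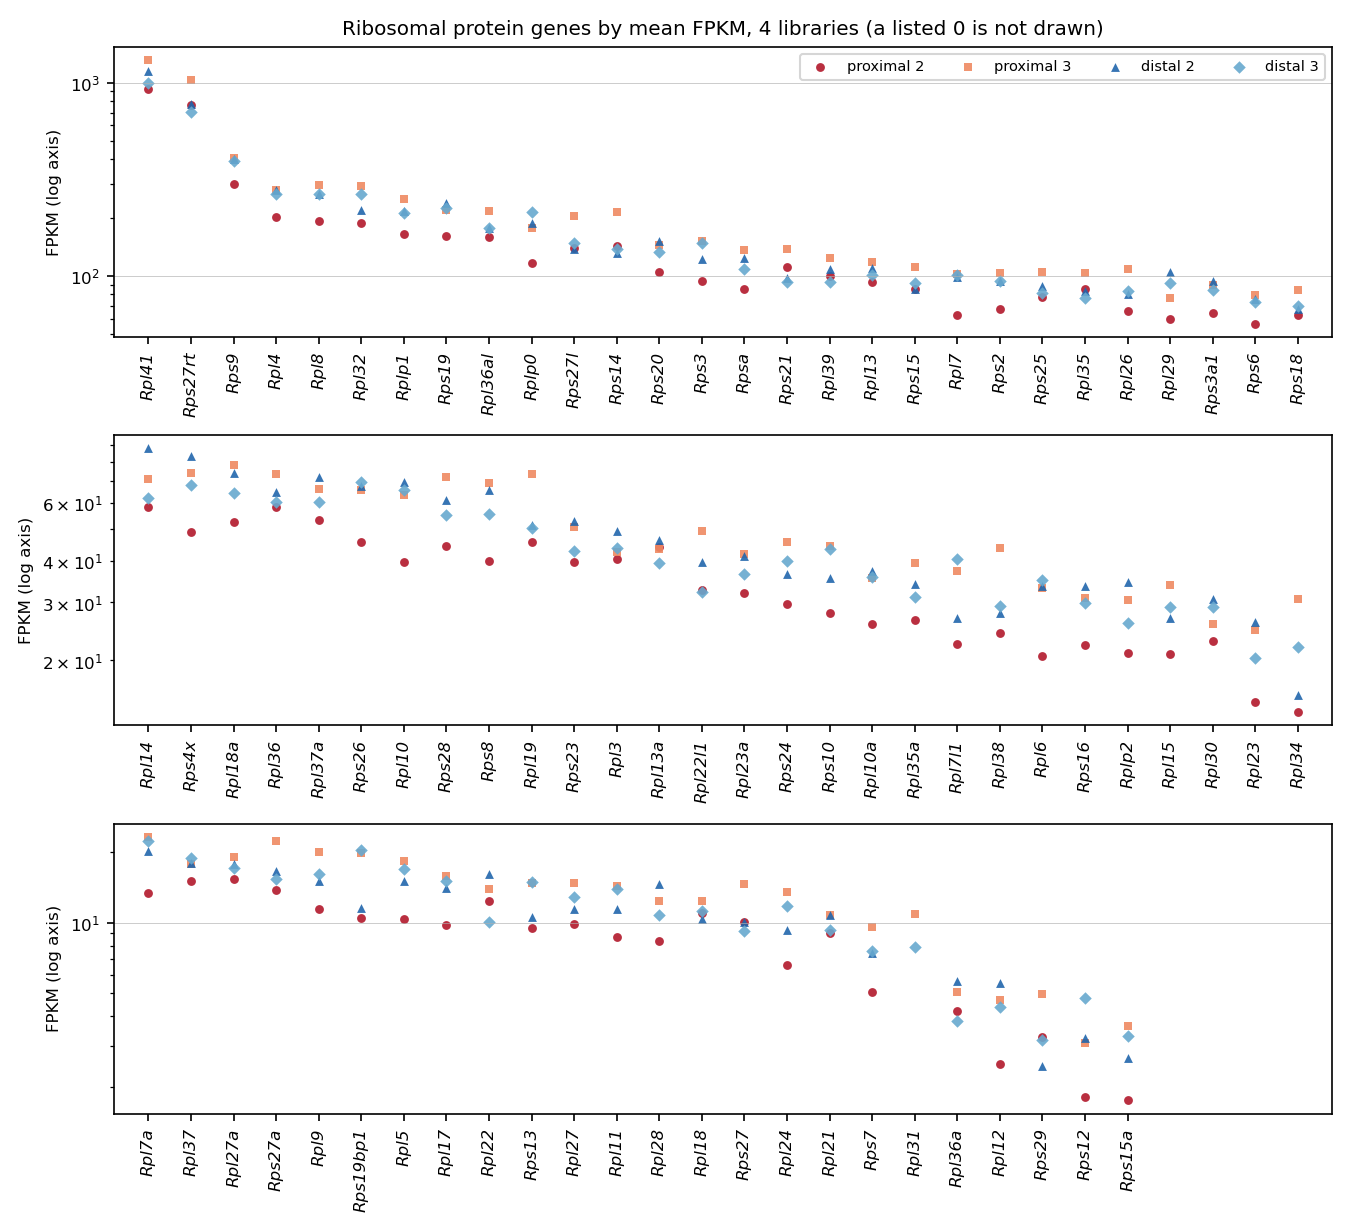
FPKM (log axes) of 80 tested ribosomal protein genes in the 4 libraries, ordered by mean from Rpl41 at the top left to Rps15a at the bottom right, with 1 point per library and a listed 0 not drawn. Proximal 2 is the lowest point for 66 of the genes drawn and proximal 3 the highest for 52.

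In the large subunit, Rpl41 led. Rpl41, which encodes a very short basic protein, stood at 929 FPKM (proximal 2) and 1306 FPKM (proximal 3), against 1149 FPKM (distal 2) and 997 FPKM (distal 3). Its mm10 coordinates are chromosome 10, 128548114 to 128549305, on the minus strand. Rpl4, whose protein lines the tunnel through which the new peptide leaves, stood at 202 and 279 FPKM in the proximal libraries, against 276 and 264 FPKM in the distal ones. Rpl8, whose protein sits near the site of peptide bond formation, stood at 192 FPKM (proximal 2) and 295 FPKM (proximal 3), against 265 FPKM in each distal library. Rpl32, another large subunit protein, stood at 187 and 292 FPKM in proximal libraries, against 218 and 264 FPKM in distal libraries. For each of Rpl41, Rpl4, Rpl8 and Rpl32 the proximal libraries lay below and above both distal ones, so the regions overlapped.

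Rpl29 had the smallest unadjusted p of all members. Rpl29, a protein of the ribosome surface, stood at 60.0 FPKM (proximal 2) and 76.3 FPKM (proximal 3), against 105 FPKM (distal 2) and 91.7 FPKM (distal 3). Both proximal values lay below both distal values, with a log2 difference (proximal minus distal, on log2(FPKM + 1)) of -0.53 ± 0.31 (SE, n = 2 libraries each) and an unadjusted limma p of 0.1505. The difference of Rpl29 was -0.36 without proximal 2 and -0.70 without proximal 3. The adjusted p was 0.99991 (limma), as for all 83 members. Rpl29 lies on chromosome 9 at 106429454 to 106431568 (plus strand). It had 27 near-identical copies in the annotation, 3 of them listed in the libraries, and fragments can be divided between such copies.

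Rpl10 and Rpl12 were among the other large subunit genes with the most negative differences. Rpl10, which joins the large subunit late in its assembly, stood at 39.7 and 63.7 FPKM in proximal libraries and at 69.6 and 65.9 FPKM in distal libraries, a log2 difference of -0.42 ± 0.36 (SE). Rpl12, which sits at the base of the stalk, stood at 2.51 and 4.71 FPKM in proximal libraries, against 5.53 and 4.39 FPKM in distal ones, a log2 difference of -0.41 ± 0.46 (SE). The regions did not overlap for Rpl10 and overlapped for Rpl12. Their size moved with the proximal library left out: Rpl10 was at -0.09 without proximal 2 and -0.76 without proximal 3, and Rpl12 at -0.05 without proximal 2 and -0.76 without proximal 3. Over the 45 tested large subunit genes 31 differences were negative and the median was -0.07 on the log2 scale.

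The stalk recruits the elongation factors to the ribosome, and all 3 of its genes had negative differences without passing the test. Rplp0, which anchors the stalk, stood at 117 FPKM (proximal 2) and 176 FPKM (proximal 3), against 188 FPKM (distal 2) and 215 FPKM (distal 3), a log2 difference of -0.48 ± 0.35 (SE). The difference of Rplp0 was -0.19 without proximal 2 and -0.78 without proximal 3. Rplp1 stood at 164 and 250.1 FPKM in proximal libraries, against 217 and 212 FPKM in distal ones (-0.08 ± 0.34, log2 difference and SE). Rplp2 stood at 21.1 and 30.5 FPKM in proximal libraries and at 34.5 and 26.0 FPKM in distal ones (-0.23 ± 0.37, log2 difference and SE). Rplp1 and Rplp2 pair in the stalk, and Rplp2 was listed far lower per length than Rplp1 in each library. A copy of the Rplp2 coding sequence, 99.4% identical, lies within an annotated transcript of Wdr89, a gene listed at 115 and 152 FPKM in proximal libraries, against 171 and 137 FPKM in distal ones. Fragments of the pair Rplp2 and Wdr89 can be divided between them by the quantification, so their separate levels are uncertain.

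In the small subunit, Rps9 had the highest level after Rps27rt, which is described with its relatives below. Rps9, near the channel where mRNA enters, stood at 299 FPKM (proximal 2) and 407 FPKM (proximal 3), against 401 FPKM (distal 2) and 394 FPKM (distal 3). Its proximal values lay below and above both distal ones, and it had 1 near-identical copy in the annotation. Rpsa, also known as a precursor of a laminin receptor, stood at 85.3 and 135 FPKM in proximal libraries, against 124 and 108 FPKM in distal ones. The regions overlapped for Rpsa too.

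The 6 largest positive differences were all in the small subunit. Rps29, a zinc-binding protein of the subunit head, stood at 3.27 and 4.97 FPKM in proximal libraries, against 2.46 and 3.19 FPKM in distal libraries (0.41 ± 0.43, log2 difference and SE). The deposited bounds of Rps29 were wide, with half-widths of 37.1% to 52.1% of the value, so its 4 libraries cannot be ordered within that error. Rps14, whose human counterpart lies in a region lost in a form of myelodysplastic syndrome, stood at 142 FPKM (proximal 2) and 215 FPKM (proximal 3), against 132 FPKM (distal 2) and 138 FPKM (distal 3) (0.37 ± 0.34, log2 difference and SE). Rps21 stood at 111 and 137 FPKM in proximal libraries, against 97.7 and 92.8 FPKM in distal ones (0.37 ± 0.30, log2 difference and SE). Both proximal values lay above both distal values for Rps14 and Rps21, and for Rps29 only as listed, within its wide bounds. Each of the 3 genes had an adjusted p of 0.99991 (limma). Without proximal 2 the difference was 0.67 for Rps14, 0.52 for Rps21 and 0.65 for Rps29, and without proximal 3 it was 0.07 for Rps14, 0.21 for Rps21 and 0.16 for Rps29.

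Rps12 had the most negative difference of all tested members. Rps12, known in Drosophila for its part in cell competition, stood at 1.82 and 3.09 FPKM in proximal libraries, against 3.24 and 4.80 FPKM in distal ones, a log2 difference of -0.55 ± 0.45 (SE). The difference of Rps12 was -0.28 without proximal 2 and -0.81 without proximal 3. Its main deposited transcript was 1802 bases long, well above the median of 679 bases over the members. Rps12 had 22 near-identical copies in the annotation, so its level is uncertain. Over the 33 small subunit genes 23 differences were negative and the median was -0.15 on the log2 scale.

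Across all members the comparison of regions made no call. By limma with Benjamini-Hochberg adjustment over 11264 genes, 0 of the 83 members had an adjusted p under 0.05 in either direction, and in this fit, with region as its only term, percent called over all genes was 0. At an unadjusted p under 0.05 there were 0 members, against 356 genes (3.16%) of all tested. The log2 differences of the members ran from -0.55 to 0.41 with a median of -0.10, beside a median of 0.09 over all tested genes. Negative differences were found in 59 members (71.1%) and in 39.6% of all genes, and 24 members were positive. The median SE was 0.36, and the medians of the lower and upper bounds of the 95% intervals were -1.03 and 0.82. These bounds are not adjusted over genes and are no limit of detection. With 2 libraries each, larger differences could also go uncalled. The median was 0.16 without proximal 2 and -0.39 without proximal 3, so its sign rested on proximal 2.

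**Figure D2:**
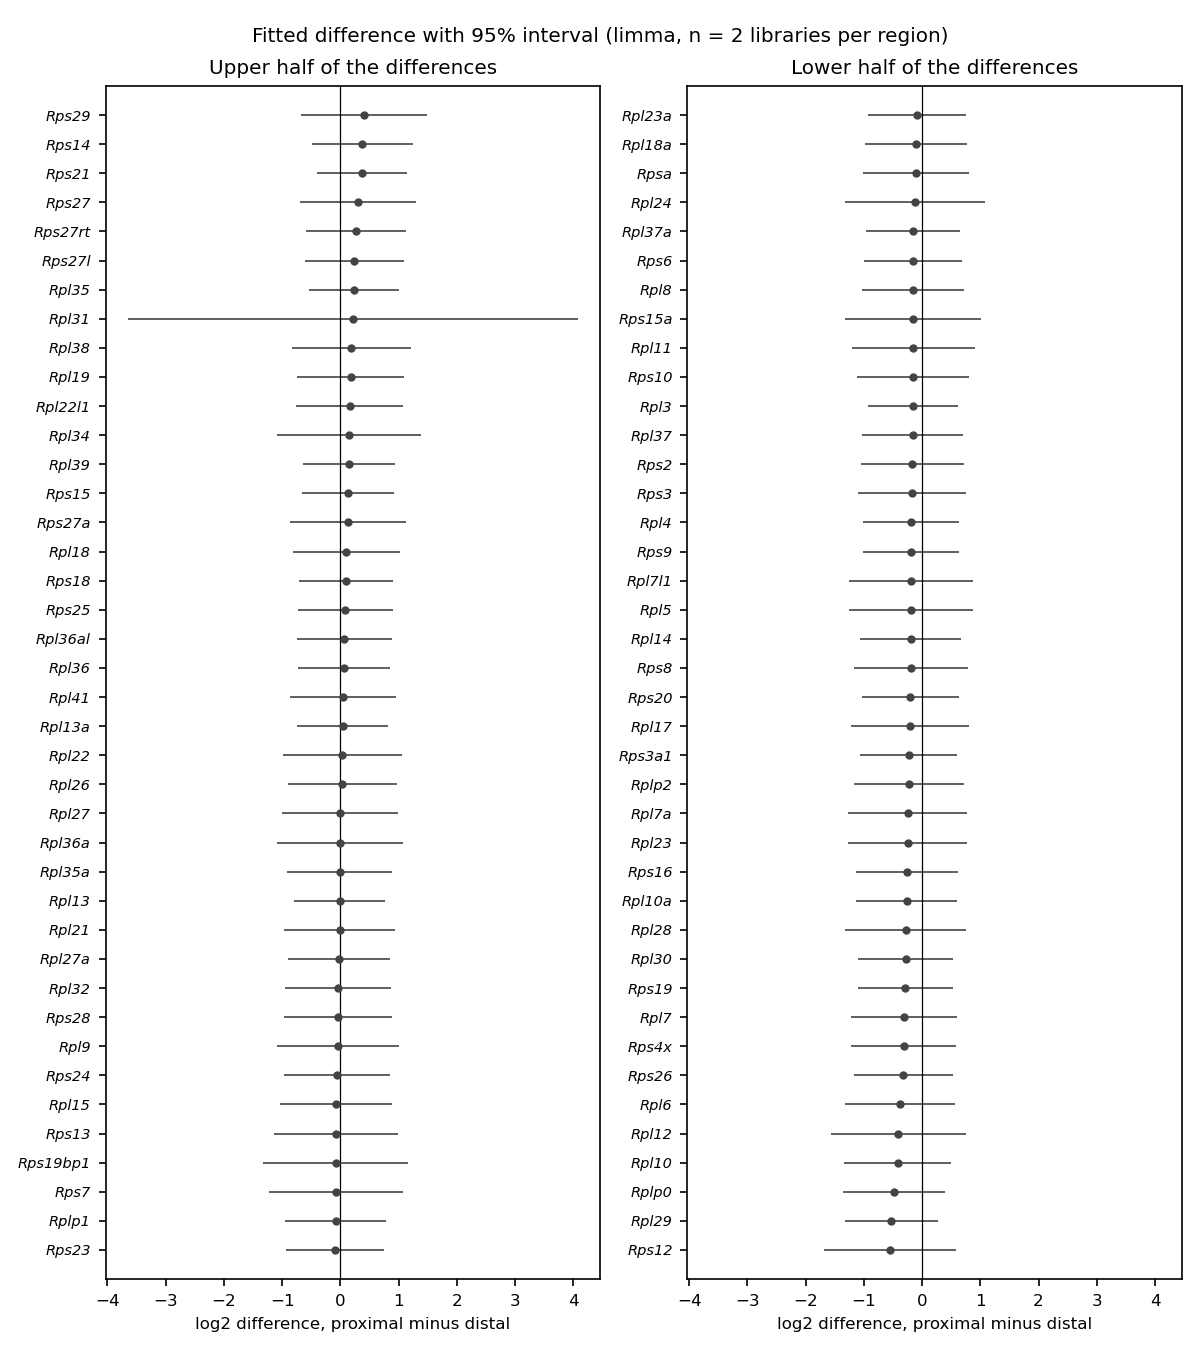
Fitted log2 difference, proximal minus distal, of 80 tested members (points) with its 95% interval (lines) from limma on log2(FPKM + 1), n = 2 libraries per region, from Rps29 at 0.41 at the top left to Rps12 at -0.55 at the bottom right. All 80 intervals drawn include 0, and that of Rpl31, listed at 0 in 2 libraries, is by far the widest.

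Members whose regions did not overlap were counted in each direction, beside the share over all tested genes. Both proximal values lay above both distal values in 4 members (4.82%), beside 13% of all tested genes, and these were Rpl35, Rps14, Rps21 and, as listed, Rps29. Both proximal values lay below both distal values in 12 members (14.5%), beside 8.64% of all genes. They included Rplp0, Rpl3, Rpl6, Rpl10, Rpl10a, Rpl29, Rpl30, Rpl37, Rps12, Rps19 and Rps26. In 41 members (49.4%) proximal 2 lay below both distal libraries and proximal 3 above both, which held for 7.77% of all genes.

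The members moved together between the libraries of one region. Proximal 2 was the lowest of the 4 libraries in 69 of 83 members (83.1%), beside 20.5% of all tested genes. Proximal 3 was the highest in 53 members (63.9%), beside 17.5% of all genes. Proximal 2 was the highest in 0 members, although it was the highest library for 48% of all genes, and proximal 3 was the lowest in 0 members, against 26.2% of all genes. Proximal 2 lay below proximal 3 in 82 members (98.8%), against 33.4% of all genes, and the exception was Rpl13a at 44.2 and 43.6 FPKM. The median ratio of proximal 3 to proximal 2 over the members was 1.49-fold, while that of distal 2 to distal 3 was 1.04-fold.

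The direction within the proximal region was opposite to that of most genes. The median log2 difference of proximal 2 minus proximal 3 was -0.55 over the members, with quartiles of -0.67 and -0.40, and 0.36 over all tested genes. Distal 2 minus distal 3 gave 0.05 over the members and 0.31 over all genes, and distal 2 was the higher of the pair in 48 members (57.8%), against 66.8% of all genes. The SD of the log2 difference between the proximal libraries was 0.39 among members and 0.94 among all tested genes. The SD among members is widened by Rpl31, listed at 0 FPKM in proximal 2 and 10.9 FPKM in proximal 3. Between equal numbers the members lay lower in proximal 2 than in distal 2 (75 of 83, 90.4%, against 38.9% of all genes, median -0.37). They lay higher in proximal 3 than in distal 3 (68 of 83, 81.9%, against 58% of all genes, median 0.18). The epithelial marker sum was likewise highest in proximal 3 but lowest in distal 2, and its part in the level of the ribosomal protein genes was not tested.

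Under other scalings of the same values, proximal 2 stayed mostly the lowest library of the members and proximal 3 mostly the highest. With quantile normalization, proximal 2 was the lowest library in 71 of 83 members (85.5%), beside 30.9% of all genes, and proximal 3 the highest in 43 (51.8%), beside 19.9% of all genes. With median ratio scaling, proximal 2 was the lowest in 81 members (97.6%), beside 32.6% of all genes, and proximal 3 the highest in 55 (66.3%), beside 22.9%. The order of the distal libraries did not hold. The members' median of distal 2 minus distal 3 was 0.05 as deposited, -0.0008 with quantile normalization and -0.32 with median ratio scaling. That of proximal 2 minus proximal 3 was -0.55, -0.51 and -0.97 in turn. These checks were chosen after seeing the data.

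**Figure D3:**
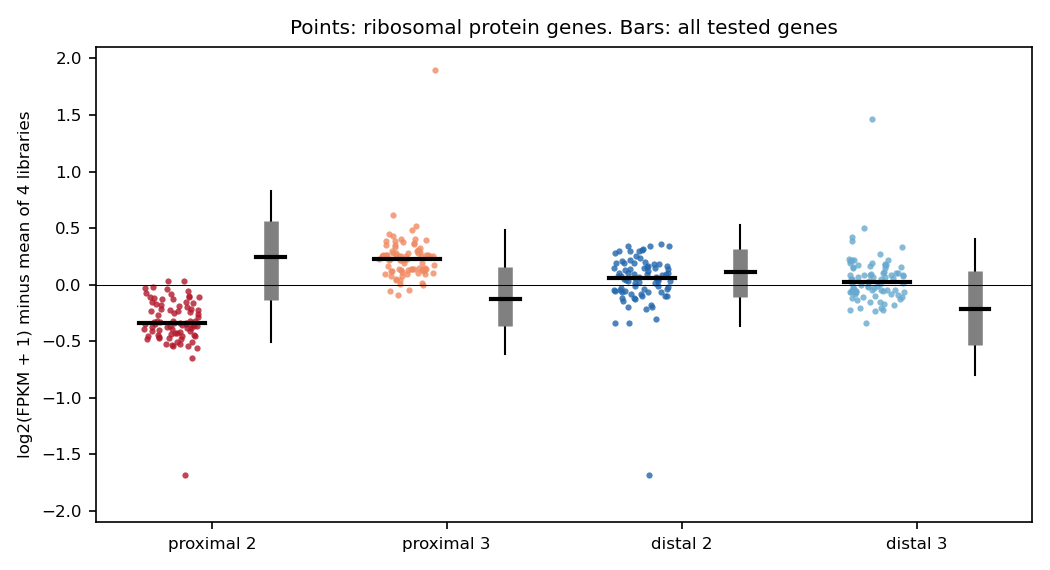
Deviation of log2(FPKM + 1) from each gene's mean over the 4 libraries, for the 83 tested ribosomal protein genes (points, spread sideways to separate them, with a line at the median) and for all 11264 tested genes (grey bar, lower to upper quartile, line from the 10th to the 90th percentile, thick mark at the median). The member medians are -0.34, 0.23, 0.06 and 0.03 in proximal 2, proximal 3, distal 2 and distal 3, against 0.25, -0.12, 0.11 and -0.21 over all genes, and the isolated points beyond 1 in either direction are Rpl31.

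The exceptions to the shared order had mainly positive differences, which follows in part from their definition, with a distal library lowest. Proximal 2 was not the lowest library in 14 members. Of these, distal 3 was the lowest in 9 and distal 2 in 5, among them Rps14, Rps21, Rps27, Rps27l, Rps27rt and Rps29. The large subunit members among them included Rpl35, Rpl39, Rpl22 and Rpl22l1. With the median of the members subtracted in each library, both proximal values lay above both distal values in 14 members (16.9%), beside 13.3% of all genes, and below them in 16 (19.3%), beside 5.27% of all genes. On that scale 0 members had an adjusted p under 0.05 by limma, 0 had an unadjusted p under 0.05 (against 2.89% of all genes), and 15 of the 11264 genes were called (14 higher in proximal, 0.124%, and 1 lower, 0.00888%). This scale was chosen after seeing the data.

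Rps27, Rps27rt and Rps27l encode forms of the same zinc-binding protein of the small subunit. The coding sequences of Rps27 and Rps27rt are identical over all 252 bases, and Rps27l differs from Rps27 at 60 of them (76.2% identity). The first 90 coding bases from GENCODE transcripts show this, with capitals for the 24 bases of Rps27l that are unlike Rps27.
Rps27: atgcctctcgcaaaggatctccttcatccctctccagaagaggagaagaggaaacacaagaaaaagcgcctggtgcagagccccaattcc
Rps27rt: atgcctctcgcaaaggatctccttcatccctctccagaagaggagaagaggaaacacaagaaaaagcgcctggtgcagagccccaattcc
Rps27l: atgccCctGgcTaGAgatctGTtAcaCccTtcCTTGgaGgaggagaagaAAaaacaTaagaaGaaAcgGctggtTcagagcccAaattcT
Rps27 lies on chromosome 3 at 90212522 to 90213651 (minus strand), Rps27rt on chromosome 9 at 114982366 to 114982739 (minus strand) and Rps27l on chromosome 9 at 66946086 to 66949516 (plus strand).

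Almost all of the level of the identical pair was listed under Rps27rt. Rps27rt stood at 764 FPKM (proximal 2) and 1033 FPKM (proximal 3), against 772 FPKM (distal 2) and 701 FPKM (distal 3) (0.27 ± 0.34, log2 difference and SE). Rps27 stood at 10.1 and 14.6 FPKM in proximal libraries, against 10.1 and 9.26 FPKM in distal ones (0.30 ± 0.39, log2 difference and SE). Without proximal 3 the difference was 0.05 for each of Rps27rt and Rps27. The deposited transcript of Rps27rt was 255 bases long and the main one of Rps27 was 575. Fragments from the shared bases cannot be told apart, so the separate levels of Rps27 and Rps27rt are uncertain. With the highest transcript per gene in place of the sum, the difference of Rps27 was -0.05.

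Rps27l, which differs enough in sequence to be read by itself and had no near-identical copy, stood at 139 and 204 FPKM in proximal libraries, against 137 and 148 FPKM in distal ones. Its log2 difference was 0.24 ± 0.34 (SE), and the regions overlapped. The difference of Rps27l was 0.51 without proximal 2 and -0.03 without proximal 3.

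Among the other pairs of related genes, the usual form was not always listed at the higher level. Rpl36al stood at 158 and 217 FPKM in proximal libraries, against 177 and 176 FPKM in distal ones, while Rpl36a, on the X chromosome, stood at 4.22 and 5.07 FPKM in proximal libraries, against 5.64 and 3.82 FPKM in distal ones. Their coding sequences are 87.7% identical. Rpl22l1 stood at 32.7 and 49.3 FPKM in proximal libraries, against 39.8 and 32.3 FPKM in distal ones. Rpl22, an RNA-binding protein needed for T cell development in mice, stood at 12.4 and 13.9 FPKM in proximal libraries, against 16.2 and 10.1 FPKM in distal ones (coding identity 70.2%). In both pairs the first named was higher per length in all 4 libraries. Rpl36a had 5 near-identical copies in the annotation, and its deposited bounds had half-widths of 28.8% to 34.8% of the value. Rpl22l1 had 2 such copies, of which Gm15421 averaged 23.9 FPKM. The separate levels within these pairs are therefore uncertain.

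Relatives known from muscle and testis were at or near 0. Rpl3l, the form of skeletal and heart muscle, was listed at 0 in both proximal libraries and distal 3 and at 0.0557 FPKM in distal 2. Rpl3 itself stood at 40.7 and 42.6 FPKM in proximal libraries, against 49.5 and 43.8 FPKM in distal ones. Rpl39l, a testis form, was listed at 0 in all 4 libraries, whereas Rpl39 stood at 100.2 and 123 FPKM in proximal libraries, against 108 and 93.1 FPKM in distal ones. Rpl10l, a testis form of Rpl10, was listed at 0.0416 FPKM in proximal 3 and at 0 in proximal 2 and both distal libraries. Rpl3l, Rpl10l and Rpl39l are the 3 members that did not reach the minimum for testing.

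Rpl7 stood at 62.8 and 102 FPKM in proximal libraries, against 98.7 and 101 FPKM in distal ones. Its relative Rpl7l1 stood at 22.5 and 37.3 FPKM in proximal libraries, against 27.0 and 40.7 FPKM in distal ones. Rps4x, the X-linked small subunit gene, stood at 49.1 and 74.4 FPKM in proximal libraries, against 83.3 and 68.3 FPKM in distal ones. For Rpl7, Rpl7l1 and Rps4x the regions overlapped.

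Rpl31 was the only tested member listed at 0 in any library. Rpl31, at the exit of the peptide tunnel, was listed at 0 FPKM (proximal 2) and 10.9 FPKM (proximal 3), against 0 FPKM (distal 2) and 7.86 FPKM (distal 3). Of the 142 transcripts of the members 0 carried a failed or capped status, so these zeros were deposited without a mark of failure. The processed copy Rpl31-ps12, 98.9% identical over the coding sequence, stood at 44.8 and 72.4 FPKM in proximal libraries, against 61.7 and 58.1 FPKM in distal ones, with no 0 in any library.

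Near-identical copies are common in this gene family, and they limit what a level of 1 gene means. A copy was counted where an annotated transcript of another gene had at least 95% identity over at least 80% of the coding sequence. Of the 83 tested members, 5 had no copy and 17 had 10 or more. Rpl21 had the most copies, 57, and a mean of 9.96 FPKM. The median level was 69.9 FPKM over the 15 members with 0 or 1 copy, 58.3 FPKM over the 51 with 2 to 9 and 27.7 FPKM over the 17 with 10 or more. Across the 83 members Spearman's rho was -0.30 between mean FPKM and the number of copies, and -0.29 between mean FPKM and the length of the main deposited transcript. Both are descriptions over genes that share libraries and transcript models.

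**Figure D4:**
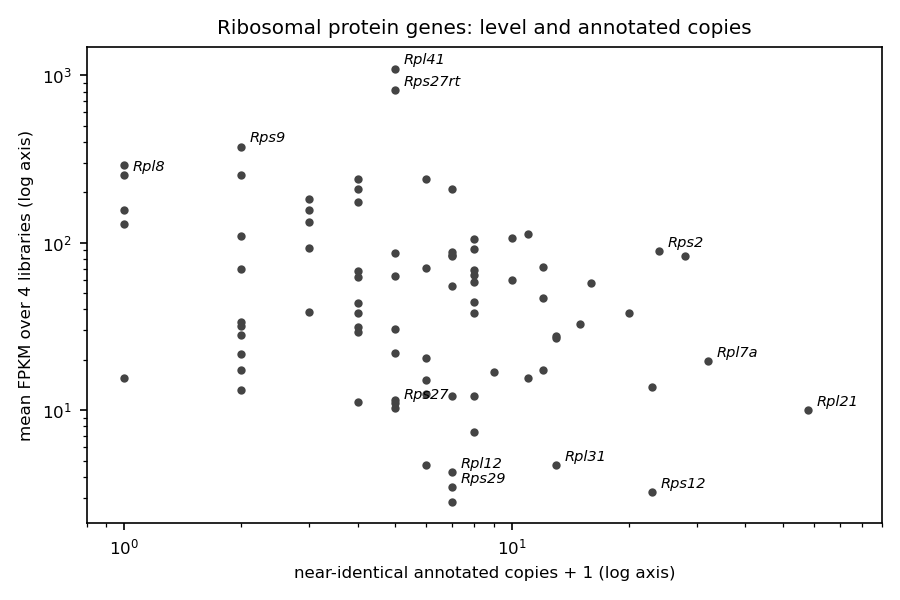
Mean FPKM over the 4 libraries (log axis) against the number of near-identical annotated copies plus 1 (log axis) for the 83 tested ribosomal protein genes, 1 point per gene, with some genes named. Genes with 10 or more copies have a median of 27.7 FPKM and those with 0 or 1 copy of 69.9 FPKM, with wide overlap.

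Some copies were listed at higher levels than their parent genes. Rpl37rt, 99.7% identical to Rpl37, stood at 183 and 276 FPKM in proximal libraries, against 266 and 229.7 FPKM in distal ones. Rpl37 itself was listed at 14.999 and 17.84 FPKM in proximal libraries and 17.9 and 18.9 FPKM in distal ones. Rpl3-ps2, whose deposited transcript is 201 bases long, stood at 370.4 and 473 FPKM in proximal libraries, against 556 and 405 FPKM in distal ones, well above Rpl3. The 6 copies of Rps2 in the files averaged between 91.2 and 93.8 FPKM, close to one another although they lie at separate places. Of 18 copies outside the member list at 1 FPKM or more, proximal 2 was the lowest library in 15 and proximal 3 the highest in 11. Without the 6 copies of Rps2, which are not separate readings, proximal 2 was the lowest in 9 of 12 and proximal 3 the highest in 5, a count added after seeing the data. Fragments can be divided between copies and their parents, so the copies are no independent measure of the order.

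Translation factors, the proteins that start, extend and end peptide synthesis on the ribosome, were also mostly lowest in proximal 2. Of 37 tested, 34 had negative and 3 positive log2 differences, with a median of -0.25, and proximal 2 was the lowest library in 34 (91.9%). Proximal 3 was the highest in 14 (37.8%), beside 63.9% of the members and 17.5% of all genes. The median deviation from a gene's mean was higher in distal 3 (0.28) than in proximal 3 (0.17). Etf1, the release factor, stood at 39.9 FPKM (proximal 2) and 119 FPKM (proximal 3), against 82.4 FPKM (distal 2) and 170.0 FPKM (distal 3) (-0.77 ± 0.65, log2 difference and SE). Eif3a, the largest subunit of an initiation factor, stood at 43.5 and 89.6 FPKM in proximal libraries, against 71.1 and 105 FPKM in distal ones. Eif4g2, which drives initiation without the cap-binding protein, stood at 129 and 199 FPKM in proximal libraries, against 169.8 and 270.0 FPKM in distal ones. By limma 0 of the 37 had an adjusted p under 0.05 and 0 an unadjusted p under 0.05, and the median was 0.06 without proximal 2 and -0.54 without proximal 3.

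The other mRNAs known for a TOP motif were mostly lowest in proximal 2 and highest in proximal 3. Of 24 tested, 19 had negative and 5 positive log2 differences, with a median of -0.11, and proximal 2 was the lowest library in 21 (87.5%) and proximal 3 the highest in 16 (66.7%). Snhg6, a host of a small nucleolar RNA, stood at 9.97 and 26.8 FPKM in proximal libraries, against 21.3 and 24.8 FPKM in distal ones. Pabpc1, the poly(A)-binding protein, stood at 37.4 and 73.1 FPKM in proximal libraries, against 58.6 and 83.9 FPKM in distal ones. Npm1, the nucleolar chaperone nucleophosmin, stood at 27.5 and 90.3 FPKM in proximal libraries, against 48.3 and 89.8 FPKM in distal ones. Their median was 0.21 without proximal 2 and -0.45 without proximal 3, and by limma 0 were called and 0 had an unadjusted p under 0.05.

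Ribosome biogenesis genes, which process rRNA and assemble the subunits, had higher medians in both libraries numbered 3 than in both numbered 2. The median deviation from a gene's mean was -0.59 in proximal 2 and 0.37 in proximal 3, against -0.20 in distal 2 and 0.43 in distal 3. Of 51 tested, 38 had negative and 13 positive log2 differences, with a median of -0.19, and proximal 2 was the lowest library in 39 (76.5%). Proximal 3 was the highest in 20 (39.2%), beside 63.9% of the members and 17.5% of all genes. Bop1 stood at 13.0 FPKM (proximal 2) and 23.0 FPKM (proximal 3), against 19.7 FPKM (distal 2) and 33.6 FPKM (distal 3). The nucleolar helicase Ddx21 stood at 8.51 and 32.1 FPKM in proximal libraries, against 15.7 and 38.4 FPKM in distal ones. Utp4 stood at 21.9 and 71.6 FPKM in proximal libraries, against 46.0 and 72.6 FPKM in distal ones. The libraries numbered 3 were higher than those numbered 2 in Bop1, Ddx21 and Utp4. Their median came to 0.27 without proximal 2, -0.67 without proximal 3, -0.52 without distal 2 and 0.10 without distal 3, and by limma 0 were called and 0 had an unadjusted p under 0.05.

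Fau and Rack1, outside the naming rule, had the same order of libraries. Rack1, a scaffold on the small subunit, stood at 96.0 and 210.1 FPKM in proximal libraries, against 138 and 199.9 FPKM in distal ones. Fau, a fusion of a ubiquitin-like protein and a small subunit protein, stood at 37.0 and 51.4 FPKM in proximal libraries, against 43.7 and 47.1 FPKM in distal ones. In both, proximal 2 was the lowest library and proximal 3 the highest, and neither had an unadjusted p under 0.05 by limma.

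The mitochondrial ribosomal protein genes, which serve the ribosome inside mitochondria, showed another order. Of 77 tested, 9 had negative and 68 positive log2 differences, with a median of 0.27, and proximal 2 was the lowest library in 3 (3.9%). Mrpl27 stood at 30.8 FPKM (proximal 2) and 17.01 FPKM (proximal 3), against 19.5 FPKM (distal 2) and 6.94 FPKM (distal 3) (0.91 ± 0.60, log2 difference and SE). Mrps16 stood at 35.2 and 14.0 FPKM in proximal libraries, against 18.04 and 7.14 FPKM in distal ones. Mrps18c stood at 25.4 and 23.1 FPKM in proximal libraries, against 18.2 and 9.86 FPKM in distal ones. Their medians by library followed the order of all tested genes, highest in proximal 2 and lowest in distal 3, with larger deviations. Here the median came to 0.04 without proximal 2, 0.59 without proximal 3, 0.63 without distal 2 and -0.02 without distal 3, and by limma 0 were called and 0 had an unadjusted p under 0.05.

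**Figure D5:**
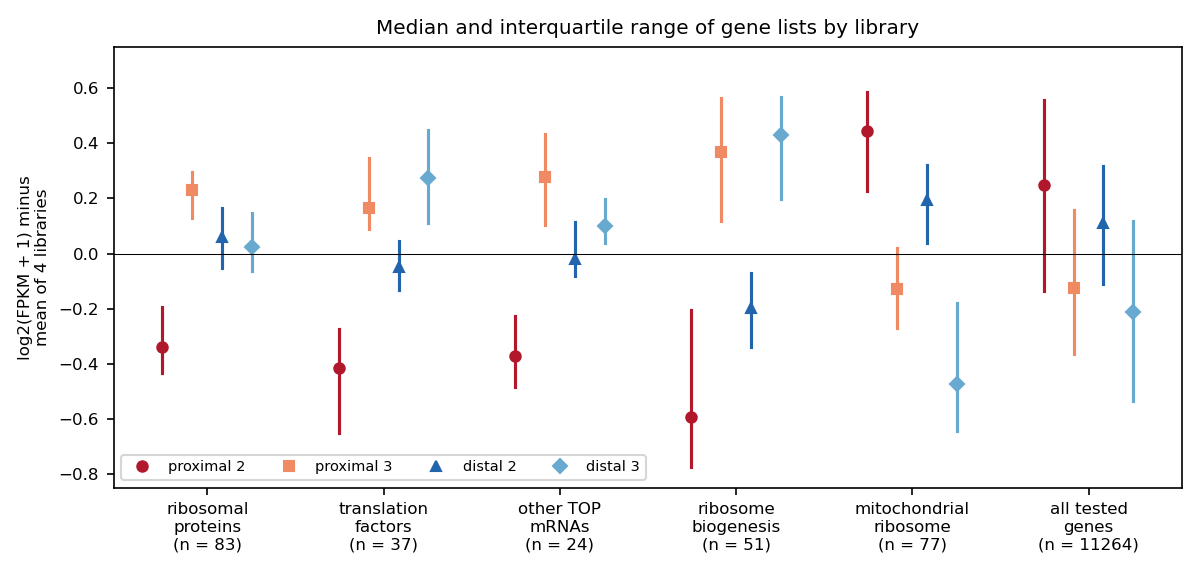
Median (symbol) and lower to upper quartile (line) of the deviation of log2(FPKM + 1) from each gene's mean over the 4 libraries, by gene list and library, with the number of tested genes below each list. Proximal 2 is lowest for the ribosomal proteins (-0.34), translation factors (-0.41), other TOP mRNAs (-0.37) and ribosome biogenesis genes (-0.59), and highest for the mitochondrial ribosome (0.45) and over all tested genes (0.25).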

How the data were processed

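Per the labels' protocols, total RNA was made into cDNA with the SMART-Seq ultra low input kit, primed at random sites and at poly(A), and into libraries with a TruSeq DNA kit. Neither step marks strand, and PCR amplifies the cDNA. The tools named are TopHat2 0.6, Cufflinks 0.0.6 and bcl2fastq 1.8.3 on the mm10 genome, per the submitters' processing notes, which list them without role or setting.

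Per the file headers, the authors deposited FPKM per transcript with lower and upper bounds, a status and a coverage signal (5.22 to 6.34 per FPKM at the median of a library, used as a rough guide to depth). FPKM holds no counts, so no count model was used, and fragments of near-identical copies may be divided in any way. The bounds cover estimation error within a library only.

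Transcripts carry no symbols and were named by position against GENCODE M21. Of 63241 transcripts 55589 (87.9%) were named, holding 96.3% of FPKM. All 142 transcripts of the ribosomal protein genes fell within a RefSeq gene with that symbol, and 0 had a failed or capped status. FPKM was summed per gene, and 7 genes with failed or capped estimates were left out. Genes at 1 FPKM or more in at least 2 libraries were tested as log2(FPKM + 1), a scale on which changes of low genes look smaller. A limma 3.58.1 model (R 4.3.3) had region as its only term and a mean trend. Its p-values were two-sided, adjusted by Benjamini-Hochberg over 11264 genes and called under 0.05. The fit was also run on simulated data with independent libraries and each gene's spread capped at the median over genes. Such data vary less than these, so that run does not show how well the fit works here. The sum was compared by an exact permutation test (scipy 1.17.1). Copies were found with blastn 2.17.0 against GENCODE transcripts.

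The members and all lists were chosen with earlier results of these data known. Genes are named by rule, as the 8 highest means, the 6 largest differences in each direction, the 4 smallest p, members listed at 0, related pairs, the stalk genes and Rpsa, and per list the 3 largest differences. Some genes that the rule names are not reported here and are not drawn by name, but they stay in the fit and in all counts. Copies, the members whose regions did not overlap, the exceptions to the library order and Rps15a, Rpl13a and Rpl21 were named after their values were seen. Alternatives were other pseudocounts (0.1 and 5), filters, scalings, names, a replicate block and leaving out each library.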

Additional observations from a re-analysis of the deposited data

How the results depend on the processing

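Of 236 alternative values in all, 225 kept their direction and side of the threshold or stayed within the spread between libraries. That spread lets a median or share change sign and still count as kept. For the share of FPKM, leaving out 1 library could not exceed it, so keeping within it shows nothing there. The share went from -0.056 to 0.214 percentage points without proximal 2. The median of the mitochondrial ribosomal protein genes went from 0.27 to -0.02 without distal 3. By limma the count of called genes was 0 as reported, 15 when scaled to the ribosomal protein median (chosen after seeing the data), and 0 to 40 when 1 library was left out (40 without distal 2 and 26 without distal 3). Leaving out 1 library leaves a region with 1, which is then assumed to vary like the other region. The libraries share numbers that the labels do not tie to an animal or day, and the deviations of libraries with the same number correlated at 0.82 over all tested genes and 0.85 over the members. The value over the members rests in part on Rpl31, which was listed at 0 in both libraries numbered 2 and lies far from the other members. The correlation was not computed without Rpl31. With the replicate block 465 genes were called (314 higher in proximal, 2.79%, and 151 lower, 1.34%), 0 of them members, whose smallest adjusted p was 0.17, and 2 members had an unadjusted p under 0.05 (2.41%, beside 21.9% of all genes). Under each alternative run 0 members were called. The median of the members ranged from -0.39 (without proximal 3) to 0.16 (without proximal 2) with a library left out, that of translation factors from -0.54 to 0.059 and that of other TOP mRNAs from -0.45 to 0.21. Rps27l ranged from -0.033 to 0.51 with a library left out, and Rps27 was at -0.053 with the highest transcript per gene. The causes were not tested. Quantile normalization moved the median of all genes to -0.03 and median ratio scaling to -0.01, against 0.09 as deposited, and the members' median relative to it was -0.13 and -0.22, against -0.20. With median ratio scaling 68 of 83 members were negative, against 59. Without Rpl41 and Rps27rt (chosen after seeing the data) the share differed by -0.102 percentage points. With 2 libraries per region, unknown depth and many near-identical copies, small differences and the levels of single copies cannot be resolved.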

Other observations

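Genes known to regulate ribosomal protein synthesis had a more mixed order of libraries. Of 16 tested genes, among them members of the mTOR pathway, Larp1, Myc and the factors Gabpa, Yy1 and Sp1, 8 had negative and 8 positive log2 differences (proximal minus distal), with a median of -0.02. Proximal 2 was the lowest library in 5 of the 16 (31.2%) and proximal 3 the highest in 5. Mycn, a transcription factor of the Myc family, stood at 4.46 FPKM (proximal 2) and 6.84 FPKM (proximal 3), against 2.64 FPKM (distal 2) and 4.39 FPKM (distal 3) (0.56 ± 0.46, log2 difference and SE). Rrbp1, a ribosome-binding protein of the endoplasmic reticulum, stood at 79.7 and 85.1 FPKM in proximal libraries, against 107 and 111 FPKM in distal ones (-0.40 ± 0.29, log2 difference and SE). Mlst8, a subunit of the mTOR complexes, stood at 4.14 and 1.86 FPKM in proximal libraries, against 2.17 and 2.05 FPKM in distal ones. By limma 0 of the 16 were called, and 0 had an unadjusted p under 0.05.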
